A study of Mus musculus with 9 samples.

Results

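The markers of hepatic stellate cells and of the myofibroblasts they give rise to were followed in liver RNA from mice with nonalcoholic steatohepatitis (NASH). They are 9 of the 24008 genes listed in the count table, taken by their symbols, and 8 of them had enough reads to be tested. Lrat, Reln and Hand2 were read as markers of the quiescent stellate cell, Acta2, Tagln and Vim as markers of the activated cell, and Des, Pdgfra and Pdgfrb as markers carried by both states. Each of 3 groups had 3 liver libraries. Flox mice were the controls, named for the floxed Irf4 gene and labelled as wild type, F4MKO mice lacked IRF4 in skeletal muscle through Myl-Cre, and F4MKO+FSTL1 mice were F4MKO mice whose gastrocnemius had received an adeno-associated virus encoding Flag-tagged FSTL1. All groups had the NASH diet, rich in fat and carbohydrate, which was given for 24 weeks by the design of the experiment and for a shorter time by the section on the virus. The study's methods name C57BL/6J mice, mostly male, that were 8 weeks old at the start of the study. The sex of the sequenced animals is not given in the labels. The methods also place a GFP virus in Flox and F4MKO mice that the labels do not mention. Livers were collected some weeks after the virus was injected. Myl-Cre is active in skeletal muscle and the FSTL1 virus used the muscle creatine kinase promoter, so both manipulations were made outside the tissue that was sequenced. The labels number the replicates without naming animals, so p-values measure the spread between these samples.

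Stellate cells lie between the hepatocytes and the sinusoidal endothelium and store most of the body's vitamin A as retinyl esters. When the liver is injured they lose these stores, proliferate under platelet-derived growth factor (PDGF), take on contractile proteins and deposit collagen, and they are regarded as the main source of myofibroblasts in the fibrotic liver. In whole liver they are a small share of the cells, and the activated markers are shared with vascular smooth muscle, portal fibroblasts and, for vimentin, with endothelial cells and leukocytes. A lower count of a marker in whole liver can come from fewer cells of a type or from less RNA in each of them, and these cannot be told apart here.

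The libraries held between 20656976 and 24322984 counted reads. Levels are given as CPM, read counts scaled to a common library size after TMM correction, and 14379 genes passed the filter on low counts. A gene was called changed when edgeR's quasi-likelihood test gave an adjusted p under 0.05 over all these genes and the fold change was above 1.5. Fold changes below are on the log2 scale, with the standard error (SE) of the fit. Neither targeted gene checks the labels in liver, because both were altered in muscle, so the sign of every difference below rests on the group labels as given. Liver Irf4 had between 92 and 132 counts in 8 libraries and 10 counts in F4MKO+FSTL1 replicate 1. Liver Fstl1 stood at 6.15, 7.62 and 6.52 CPM in Flox, at 16.1, 9.8 and 11.3 CPM in F4MKO and at 5.33, 3.22 and 4.33 CPM in F4MKO+FSTL1 libraries. Hepatocyte markers made up most of the signal of the lists examined, with a summed level between 78226 and 114022 CPM per library, and the summed level of 7 skeletal muscle genes was between 1.17 and 1.67 CPM.

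The promoters of 4 members whose levels are described below are shown because the results turn on these genes, which include the actin gene and the 3 called members with a window. Each is the RefSeq window of 300 bases on GRCm38.p6, beginning 250 bases before the RefSeq start of the gene. It is written 5′ to 3′ on the strand of the gene, and bases are counted from the RefSeq start. That start can differ from the GENCODE positions given below. The Vim window lies inside the GENCODE span of its gene, and so does most of the Acta2 window. Capitals mark a CArG-like box (the CArG box with at most 1 G or C allowed in its inner run of A and T), a TATA box or, on either strand, a GC box.
Acta2, chr19:34255324-34255623, minus strand: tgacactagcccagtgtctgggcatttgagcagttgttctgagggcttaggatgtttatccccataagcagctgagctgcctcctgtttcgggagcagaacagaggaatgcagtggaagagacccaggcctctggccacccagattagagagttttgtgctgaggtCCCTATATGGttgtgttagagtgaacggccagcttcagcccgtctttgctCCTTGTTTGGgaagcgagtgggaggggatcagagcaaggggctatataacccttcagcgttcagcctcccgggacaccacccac
Vim, chr2:13574061-13574360, plus strand: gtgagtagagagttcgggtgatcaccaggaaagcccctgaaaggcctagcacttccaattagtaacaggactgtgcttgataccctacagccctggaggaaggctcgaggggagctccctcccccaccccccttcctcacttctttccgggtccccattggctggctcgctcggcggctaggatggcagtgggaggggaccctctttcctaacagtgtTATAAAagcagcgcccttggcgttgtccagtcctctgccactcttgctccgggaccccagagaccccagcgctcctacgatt
Pdgfra, chr5:75152001-75152300, plus strand: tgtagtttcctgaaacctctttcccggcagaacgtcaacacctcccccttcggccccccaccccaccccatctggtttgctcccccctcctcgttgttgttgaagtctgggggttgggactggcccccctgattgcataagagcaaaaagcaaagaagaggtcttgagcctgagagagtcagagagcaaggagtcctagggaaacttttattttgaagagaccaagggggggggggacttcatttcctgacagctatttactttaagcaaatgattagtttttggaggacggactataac
Lrat, chr3:82903925-82904224, minus strand: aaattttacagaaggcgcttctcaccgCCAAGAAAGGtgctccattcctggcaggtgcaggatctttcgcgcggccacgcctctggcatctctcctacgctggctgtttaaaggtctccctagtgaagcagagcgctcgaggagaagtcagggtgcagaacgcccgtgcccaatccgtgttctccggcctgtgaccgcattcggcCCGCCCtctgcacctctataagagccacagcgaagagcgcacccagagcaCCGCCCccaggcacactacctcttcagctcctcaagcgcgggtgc
The CArG box is the sequence read by serum response factor, which drives genes of the contractile cytoskeleton. The Acta2 window held 2 CArG-like boxes, at bases -84 to -75 and -34 to -25 from the start, and the Lrat window held 1 at -223 to -214. The Vim window held a TATA box at -32 to -27, and the Pdgfra window held none of the 3 marked motifs. Windows were found for 7 members on the chromosomes searched, and motifs were searched on both strands. A CArG-like box was present in 2 of the 7 and in 9.98% of all 32851 windows of this length, and the strict form with only A or T inside was present in 0 of the 7 and in 1.63% of all windows. The TATA box, TATAAA, was present in 1 member and in 13.6% of all windows, and the GC box, GGGCGG, in 4 members (Des, Hand2, Lrat and Reln) and in 35.7% of all windows. The E box CANNTG was present in 6 members and 72.3% of all windows, CAGACA, the core read by SMAD proteins, in 2 members (Acta2 and Des) and 21%, and the AP-1 sequence TGANTCA in 0 members and 7.81%. Of these windows that of Reln had the highest content of G and C, at 80.7%, against a median of 52.7% over all windows. None of the motifs searched was present in all 7 windows.

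All 3 quiescent markers were lower in F4MKO+FSTL1 than in F4MKO livers, and Lrat passed the thresholds. Lrat (chr3:82892579-82903973, GENCODE vM21 on GRCm38) encodes lecithin retinol acyltransferase, which esterifies vitamin A for storage. Its levels were 16, 21 and 18.6 CPM in the Flox libraries, 23.9, 19.1 and 22.5 CPM in the F4MKO libraries and 14.7, 10.7 and 12.3 CPM in the F4MKO+FSTL1 libraries. Every F4MKO+FSTL1 library lay below every library of the other groups, and Flox and F4MKO libraries overlapped. Lrat was 1.74-fold lower in F4MKO+FSTL1 than in F4MKO (log2 fold change -0.80, SE 0.15, adjusted p = 0.0043, edgeR), and it was called in all 16 refits with another tool, scaling, filter or set of libraries. Tested against a fold of 1.5 it did not pass (adjusted p = 0.268, edgeR).

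Reln (chr5:21884454-22344702) encodes reelin, a large secreted glycoprotein that stellate cells make in the liver. It was the quiescent marker with the most reads, at 42.7, 53.6 and 44.2 CPM in Flox, 52.1, 48.0 and 59.2 CPM in F4MKO and 47.9, 34.0 and 30.3 CPM in F4MKO+FSTL1 libraries. F4MKO+FSTL1 replicate 1 stood at nearly the level of the lowest F4MKO library, and the other two stood below all Flox and F4MKO libraries. The difference between F4MKO+FSTL1 and F4MKO was -0.51 (SE 0.16, adjusted p = 0.0462, edgeR), a difference too small for the fold threshold. Without F4MKO+FSTL1 replicate 1 it was -0.72 (adjusted p = 0.00892) and passed, as it did in 2 of the 16 refits. With 1 library left out the difference ran from -0.72 to -0.37, and its adjusted p from 0.00892 to 0.158 (edgeR).

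Hand2 (chr8:57320983-57324633) encodes a basic helix-loop-helix transcription factor that marks the mesenchyme from which stellate cells descend. It was measured at 9.9, 14 and 12.6 CPM in Flox, 16.6, 14.5 and 14.4 CPM in F4MKO and 11.1, 10.1 and 10.1 CPM in F4MKO+FSTL1 libraries. Each F4MKO library lay above each of the 6 others, and the F4MKO+FSTL1 range lay inside the Flox range. The fold between F4MKO+FSTL1 and F4MKO was 1.45 (log2 fold change -0.54, SE 0.14, adjusted p = 0.0177, edgeR), just short of the fold threshold. Hand2 was called in 2 of the 16 refits. With 1 library left out the log2 fold change ran from -0.58 to -0.47, and its adjusted p from 0.00942 to 0.0755 (edgeR). A share of 19.6% of the exon bases of Hand2 is also covered by exons of the antisense gene Hand2os1 in GENCODE, and the use of strand in the counting is not given in the sources used here, so reads of the pair cannot be told apart there.

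Of the activated markers, Vim and Acta2 were higher in every F4MKO library than in every Flox library, as were 11.7% of all genes. Neither was called in that comparison. In F4MKO+FSTL1 against F4MKO, Vim was called lower, while Acta2 varied between libraries and was not called. Tagln was barely detected. Vim (chr2:13573927-13582826) encodes vimentin, the intermediate filament of mesenchymal cells. Its levels were 40.9, 37.9 and 39.9 CPM in Flox, 62.9, 53.6 and 53.2 CPM in F4MKO and 25.0, 18.1 and 31.8 CPM in F4MKO+FSTL1 libraries. The 3 groups did not overlap at any point. Vim was 2.27-fold lower in F4MKO+FSTL1 than in F4MKO (log2 fold change -1.18, SE 0.16, adjusted p = 0.00152, edgeR), was called in all 16 refits and passed the test against a fold of 1.5 (adjusted p = 0.0192).

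Acta2 (chr19:34241090-34255590) encodes smooth muscle alpha-actin, the usual histological mark of the myofibroblast. It had between 45 and 189 reads per library, at 4.86, 3.28 and 4.62 CPM in Flox, 5.55, 7.91 and 4.95 CPM in F4MKO and 3.27, 2.16 and 5.95 CPM in F4MKO+FSTL1 libraries. F4MKO+FSTL1 replicate 3 stood above 2 of the 3 F4MKO libraries, and the coefficient of variation in that group was 51.4%, against 27.3% for Vim and 16% for Lrat. The difference between F4MKO+FSTL1 and F4MKO was -0.70 (SE 0.32, 95% confidence interval -1.40 to 0.01, adjusted p = 0.145, edgeR). Without F4MKO+FSTL1 replicate 3 it was -1.16 and was called (adjusted p = 0.018), the only 1 of the 16 refits with a call. With 1 library left out the difference ran from -1.16 to -0.41, and its adjusted p from 0.018 to 0.397 (edgeR).

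Among genes of smooth muscle, Myh11 and Cnn1 were highest in the same pair of libraries as Acta2, and others of the list, such as Smtn and Lmod1, were not. Myh11, the smooth muscle myosin heavy chain, reached its highest levels in F4MKO replicate 2 (3.85 CPM) and F4MKO+FSTL1 replicate 3 (4.49 CPM), the libraries in which Acta2 was highest, and its lowest level in F4MKO+FSTL1 replicate 2 (1.35 CPM), where Acta2 was lowest. Cnn1, calponin of smooth muscle, had 8 and 12 reads in those first libraries, 0 in F4MKO+FSTL1 replicates 1 and 2, and 1 to 4 in the remaining libraries. In F4MKO replicate 1, however, Myh11 stood at 2.12 CPM, its next lowest level, while Acta2 stood at 5.55 CPM, above all Flox libraries. Myh11 and Cnn1 were singled out after their values were seen. Over the whole list of 8 smooth muscle genes the summed level ran from 11.7 to 13.0 CPM in Flox, 12.4 to 15.1 CPM in F4MKO and 8.51 to 13.5 CPM in F4MKO+FSTL1 libraries, and its part in the Acta2 values was not tested.

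Tagln (chr9:45929619-45936058), which encodes the actin-binding protein transgelin, had 0, 2 and 0 reads in Flox, 1, 2 and 3 reads in F4MKO and 1, 1 and 0 reads in F4MKO+FSTL1 libraries. All 9 values were at or under 3 reads, which correspond to 0.106 to 0.157 CPM depending on the library, so no fold change is given and a difference was not detectable at this depth. In GENCODE 67.9% of the exon bases of Tagln (1349 of 1988) are also covered by exons of genes on the opposite strand, Gm48529 and Pcsk7, and Pcsk7 had between 583 and 786 reads. The part of this overlap in the low Tagln count was not tested. Tagln is therefore left out of every comparison of the activated class.

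**Figure D1:**
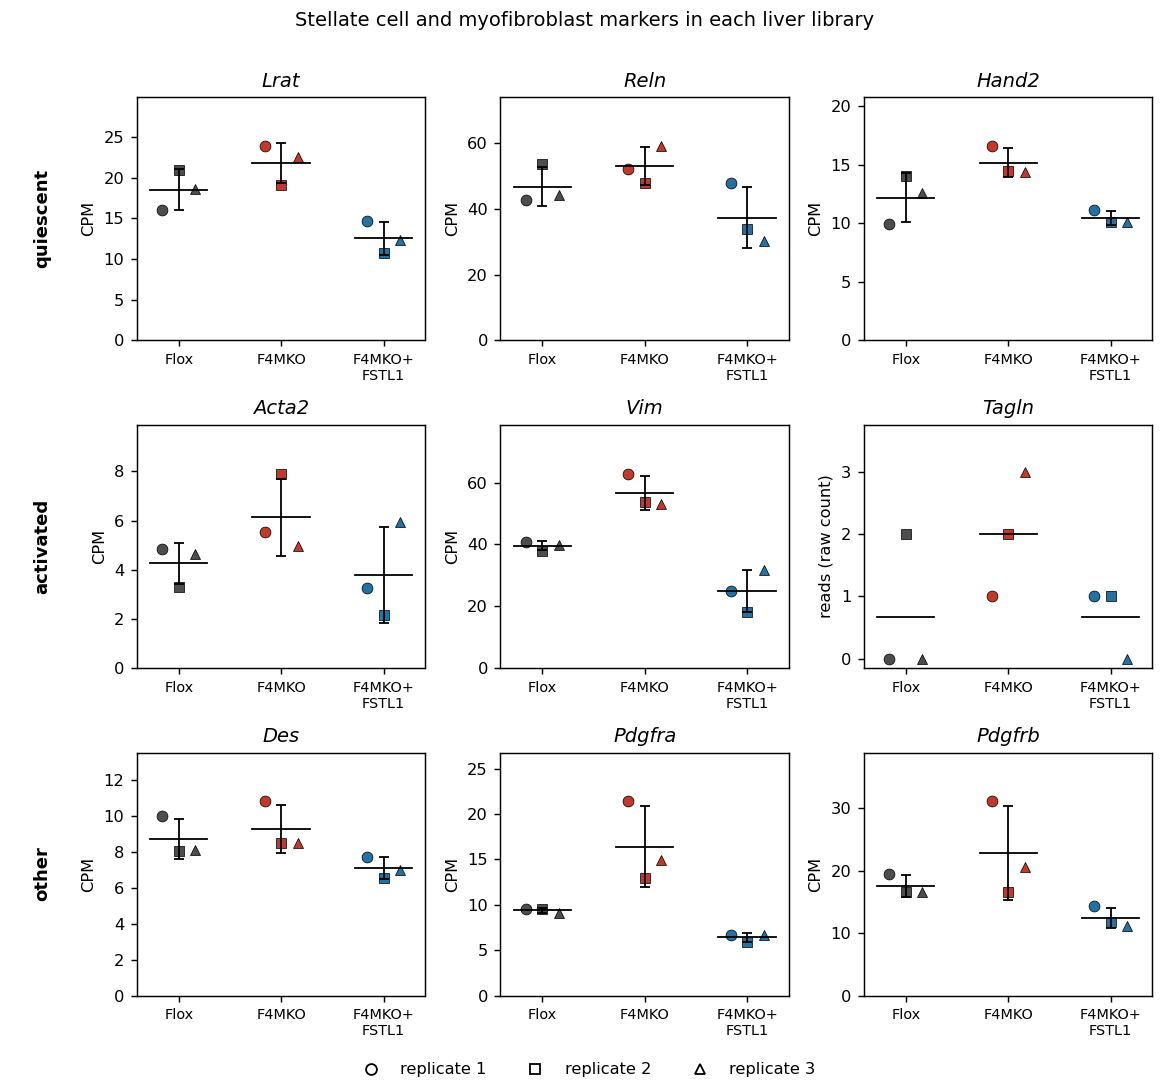
Level of each marker in the 9 liver libraries, in CPM on the vertical axis (raw reads for Tagln), by group on the horizontal axis; symbols are replicates, horizontal bars are group means and error bars are the SD of 3 libraries. Vim separates the 3 groups without overlap, Acta2 does not, and Tagln lies between 0 and 3 reads everywhere.

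The remaining markers were the intermediate filament desmin and both receptors of PDGF, and the receptors moved more than desmin. Des (chr1:75360329-75368579) stood at 9.99, 8.03 and 8.08 CPM in Flox, 10.8, 8.5 and 8.5 CPM in F4MKO and 7.71, 6.54 and 7.0 CPM in F4MKO+FSTL1 libraries. Its F4MKO+FSTL1 libraries lay below all others by small margins, and the difference from F4MKO was -0.39 (SE 0.15, adjusted p = 0.0831, edgeR).

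Pdgfra (chr5:75152292-75198215) encodes the alpha receptor of PDGF, carried by stellate cells and by portal fibroblasts. It was tightly grouped in Flox, at 9.54, 9.55 and 9.1 CPM, and in F4MKO+FSTL1, at 6.64, 5.86 and 6.69 CPM, and spread in F4MKO, at 21.4, 12.9 and 14.9 CPM. As for Vim, the 3 groups did not overlap. Pdgfra was 2.57-fold lower in F4MKO+FSTL1 than in F4MKO, the largest difference among the members (log2 fold change -1.36, SE 0.17, adjusted p = 0.00131, edgeR), was called in all 16 refits and passed the test against a fold of 1.5 (adjusted p = 0.01). F4MKO replicate 1 gave the highest value, and without it the difference was -1.12 (adjusted p = 0.00264).

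Pdgfrb encodes the beta receptor, which binds the PDGF-B that drives the division of activated stellate cells. Its levels were 19.5, 16.6 and 16.5 CPM in Flox, 31.1, 16.6 and 20.6 CPM in F4MKO and 14.3, 11.7 and 11.2 CPM in F4MKO+FSTL1 libraries. F4MKO replicate 2 stood at the Flox level, and all F4MKO+FSTL1 libraries lay below all others. Pdgfrb was 1.84-fold lower in F4MKO+FSTL1 than in F4MKO (log2 fold change -0.88, SE 0.20, adjusted p = 0.0116, edgeR). It did not pass the test against a fold of 1.5 (adjusted p = 0.274), and the call was lost without F4MKO+FSTL1 replicate 2 (-0.83, adjusted p = 0.0526). Without F4MKO replicate 1 the difference was -0.59 (adjusted p = 0.0368).

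The first comparison asked what loss of muscle IRF4 did to these markers. In F4MKO against Flox livers all 8 tested members had positive fold changes, from 0.09 for Des to 0.81 for Pdgfra, with a median of 0.35, against a median of 0 over all genes tested, of which 49.4% were above 0. None of the 8 was called, in a comparison where 0.271% of all genes were (39 genes). An unadjusted p under 0.05 was found in 3 of the 8 and in 2424 of the 14379 genes tested (edgeR). The nearest to the threshold was Pdgfra, 1.75-fold higher in F4MKO (SE 0.17 on the log2 scale, adjusted p = 0.061, edgeR), followed by Vim at 1.43-fold (log2 fold change 0.51, adjusted p = 0.153). Pdgfra was called with DESeq2 (adjusted p = 0.00392), without the filter on low counts (adjusted p = 0.00417) and without F4MKO replicate 2 (log2 fold change 0.95, adjusted p = 0.0493). In 4 members, Hand2, Acta2, Vim and Pdgfra, every F4MKO library exceeded every Flox library, and 11.7% of all genes did the same. The intervals of the quiescent markers reached from -0.08 to 0.55 for Lrat, from -0.17 to 0.53 for Reln and from 0.02 to 0.61 for Hand2, whose adjusted p was 0.268.

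The comparison of F4MKO+FSTL1 with F4MKO asked what FSTL1 from muscle added on the IRF4-deficient background, and it shares the F4MKO libraries with the first. All 8 tested members had negative fold changes, from -0.39 for Des to -1.36 for Pdgfra, with a median of -0.75 against 0.01 over all genes tested, of which 48.6% were below 0. Of the 8, 4 were called lower (Lrat, Vim, Pdgfra and Pdgfrb) and 0 higher, where 11.2% of all genes were called lower and 3.21% higher. With the adjusted p alone 6 members passed, adding Reln and Hand2, and 13.1% of all genes were lower by that rule. The members were 1 of 3 quiescent markers, 1 of 2 tested activated markers and 2 of 3 others. In 7 members, all but Acta2, the groups did not overlap, and 21.1% of all genes fell apart in this direction. When libraries were scaled by total counts without TMM, the median of all genes moved to -0.18 and that of the members to -0.95, and 7 members were called, all lower. When the fold itself was tested against 1.5, 2 members were called, Vim and Pdgfra.

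With F4MKO+FSTL1 set against Flox, which shares libraries with both comparisons above, all 8 members again had negative fold changes, from -0.17 for Acta2 to -0.67 for Vim, with a median of -0.41 against 0 over all genes tested, of which 50.1% were below 0. None was called, in a comparison that called 0.00695% of all genes (1 gene) by edgeR. An unadjusted p under 0.05 was found in 4 of the 8 and in 1924 of the 14379 genes tested. Vim was 1.59-fold lower than in Flox (SE 0.16, 95% confidence interval -1.03 to -0.31 on the log2 scale, adjusted p = 0.125, edgeR). It was called without F4MKO+FSTL1 replicate 3 (-0.87, adjusted p = 0.0317), with DESeq2 (adjusted p = 0.0157) and without the filter (adjusted p = 0.00784). Lrat differed by -0.56 (adjusted p = 0.147), Pdgfra by -0.56 (adjusted p = 0.204) and Pdgfrb by -0.50 (adjusted p = 0.321). In 5 members, Lrat, Vim, Des, Pdgfra and Pdgfrb, every F4MKO+FSTL1 library lay below every Flox library, and 10.7% of all genes did the same.

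**Figure D2:**
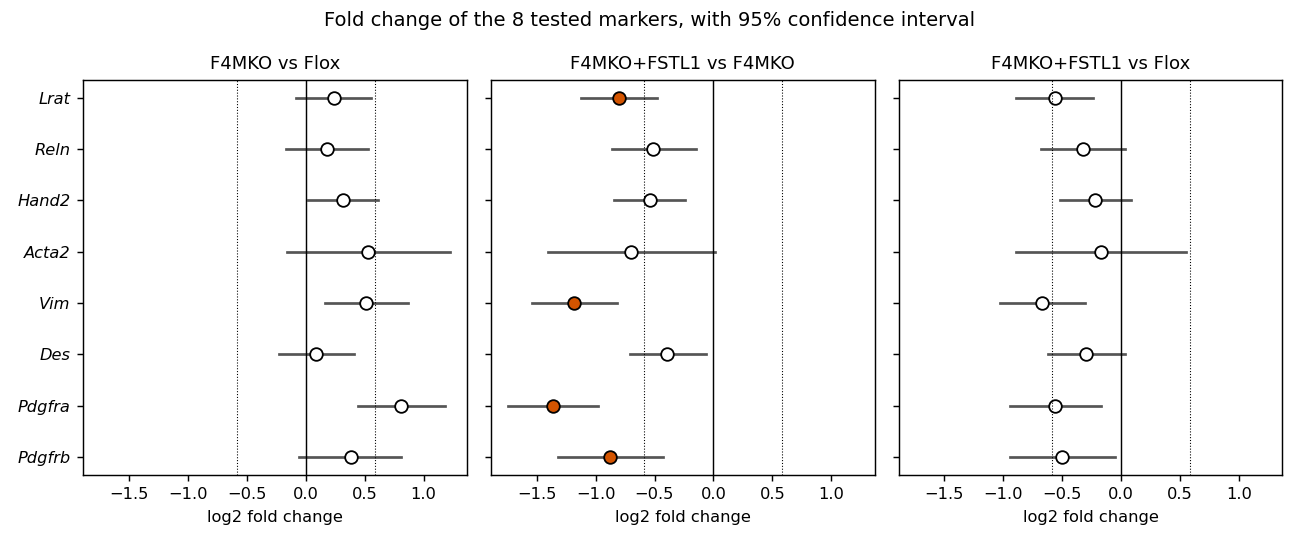
Log2 fold change of the 8 tested markers in each comparison on the horizontal axis, with the 95% confidence interval of the edgeR fit as a line; orange points were called and dotted lines mark a fold of 1.5. Only the comparison of F4MKO+FSTL1 with F4MKO has called markers, namely Lrat, Vim, Pdgfra and Pdgfrb.

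The quiescent and activated classes had fold changes of the same sign in each comparison, with called members in F4MKO+FSTL1 against F4MKO alone. Quiescent markers differed between F4MKO+FSTL1 and F4MKO by -0.51 to -0.80 (median -0.54), and the tested activated markers, Acta2 and Vim, by -0.70 and -1.18. Expressed as the mean of log2 CPM centred on the 9 libraries, the quiescent class stood between -0.16 and 0.24 in Flox, 0.16 and 0.37 in F4MKO and -0.46 and -0.09 in F4MKO+FSTL1 libraries. The activated class stood between -0.21 and 0.12, between 0.32 and 0.66 and between -1.04 and 0.08 in the same order. F4MKO libraries were thus the highest group in the activated class, and in the quiescent class they overlapped Flox replicate 2. Among F4MKO+FSTL1 libraries, replicate 1 was highest for the quiescent class and replicate 3 for the activated class.

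**Figure D3:**
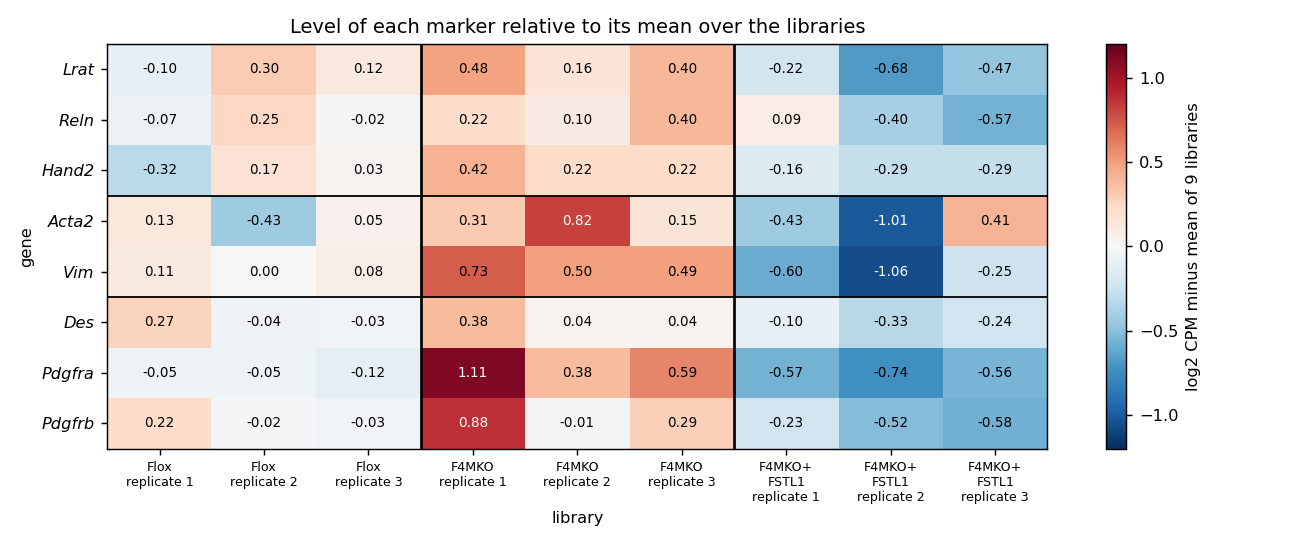
Level of each tested marker (rows) in each library (columns) as log2 CPM minus its mean over the 9 libraries, coloured from blue (below the mean) to red (above it). F4MKO replicate 1 is highest for 6 markers and F4MKO+FSTL1 replicate 2 lowest for 5.

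A pair of libraries stood at the ends of these ranges. F4MKO replicate 1 was the highest library for 6 of the 8 markers (Lrat, Hand2, Vim, Des, Pdgfra and Pdgfrb), and F4MKO+FSTL1 replicate 2 was the lowest for 5 (Lrat, Acta2, Vim, Des and Pdgfra). F4MKO replicate 1 also had the highest summed level of 6 cholangiocyte genes, at 431 CPM against 36.1 to 223 CPM in the other libraries, and the lowest of 10 hepatocyte genes, at 78226 CPM against 96091 to 114022 CPM. In that library Spp1, at 397 CPM, made up most of the first sum, and Alb, at 48834 CPM, most of the second. Without F4MKO replicate 1, the same number of members, 4, was called in F4MKO+FSTL1 against F4MKO.

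Ratios taken within a library do not depend on how the libraries were scaled, and they show where the markers moved unequally. They are given as a description, with no test. The log2 ratio of Pdgfra to Pdgfrb was -1.03, -0.80 and -0.86 in Flox, -0.54, -0.37 and -0.46 in F4MKO and -1.11, -0.99 and -0.75 in F4MKO+FSTL1 libraries. All F4MKO libraries lay above all others. Pdgfra to Lrat had the same order, with means of -0.97 ± 0.20, -0.44 ± 0.24 and -0.96 ± 0.16 (SD, n = 3 libraries). Acta2 to Lrat overlapped among all groups, at -2.14 ± 0.49, -1.86 ± 0.50 and -1.84 ± 0.69. Pdgfrb to Lrat stayed near 0, at -0.08 ± 0.33, 0.02 ± 0.32 and -0.01 ± 0.13. The F4MKO+FSTL1 group was highest for Hand2 to Lrat, at -0.40, -0.08 and -0.28, although F4MKO replicate 2 also stood at -0.40.

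**Figure D4:**
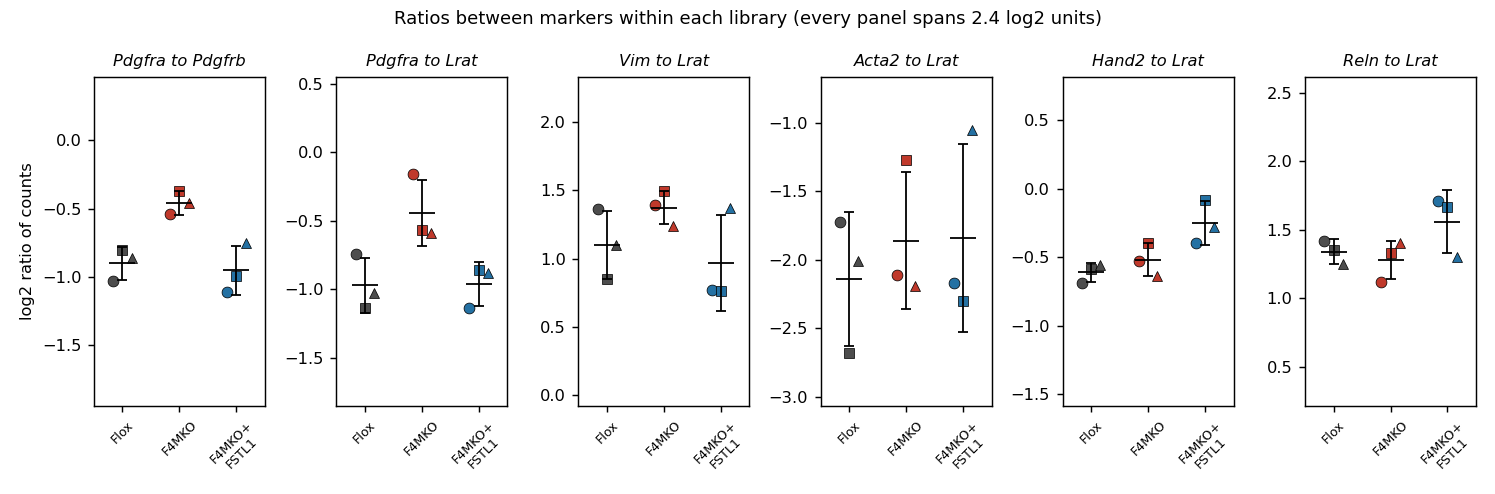
Log2 ratio between a pair of markers within each library on the vertical axis of each panel, by group; symbols are replicates 1 (circle), 2 (square) and 3 (triangle), and bars are the mean and SD of 3 libraries. Pdgfra to Pdgfrb is higher in each F4MKO library (-0.54 to -0.37) than in any other library, and Acta2 to Lrat overlaps among all groups.

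Divided by transcript length (RPKM, which is CPM per kilobase, with the longest protein-coding GENCODE transcript), Vim had the highest level of the members in every group, at 18.1 ± 0.693 in Flox, 25.8 ± 2.48 in F4MKO and 11.4 ± 3.11 RPKM in F4MKO+FSTL1 (SD, n = 3). Hand2 came next, at 5.18, 6.45 and 4.44 RPKM, followed by Reln at 4.0, 4.54 and 3.2 RPKM. The ranges of Hand2 and Reln overlapped in Flox (4.21 to 5.94 and 3.65 to 4.58 RPKM) and not in F4MKO or F4MKO+FSTL1. Lrat, Pdgfrb, Des and Acta2 lay between 2.09 and 3.46 RPKM in Flox, and neighbours in this order overlapped except Acta2, which lay below Des. Pdgfra was the lowest of the tested members in every group, at 1.37, 2.4 and 0.936 RPKM, and overlapped Acta2 in F4MKO alone. The place of Reln depends on the length used, and with the union of its exons it ranked 6 or 7.

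Genes with which the markers act were examined by lists, to be read against the 11.2% of all genes called lower in F4MKO+FSTL1 than in F4MKO. Among 21 other genes of stellate cells, 6 were called lower in F4MKO+FSTL1 than in F4MKO and 0 higher, with a median fold change of -0.47. They included Adamtsl2, a matrix protein of the ADAMTS-like family (-1.79, adjusted p = 0.00173), Hgf, hepatocyte growth factor (-1.10, adjusted p = 0.027), Gucy1a1, a subunit of soluble guanylate cyclase (-1.06, adjusted p = 0.00413), and Cygb, cytoglobin (-1.03, adjusted p = 0.0034, all by edgeR). Of the 21, 16 had negative and 5 positive fold changes. Angptl6, an angiopoietin-like protein, had the largest positive one, 0.55 (adjusted p = 0.047, edgeR) at a fold under 1.5, with all F4MKO+FSTL1 libraries above all F4MKO libraries, and Cxcl12 (258, 234 and 262 CPM in Flox, F4MKO and F4MKO+FSTL1 on average) and Tmem56 (279, 263 and 260 CPM) had nearly equal means. In F4MKO against Flox 0 of the 21 were called, and 15 had positive fold changes. Leaving out single libraries gave 0 to 1 calls in F4MKO against Flox and 4 to 9 in F4MKO+FSTL1 against F4MKO.

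Of 10 tested genes of retinoid handling, 2 were called lower in F4MKO+FSTL1 than in F4MKO. Among them was Rarb, a retinoic acid receptor (-0.69, adjusted p = 0.0228, edgeR). The median of the list had the opposite sign, 0.27, and 7 of the 10 had positive fold changes. Rbp4 and Ttr, the plasma carriers of retinol that hepatocytes make, stood at 2796 and 5435 CPM in F4MKO and at 3982 and 6768 CPM in F4MKO+FSTL1 on average (adjusted p = 0.0226 at a fold under 1.5, and 0.165, by edgeR). Of the 2 calls on the list, 1 was lost without F4MKO replicate 1, F4MKO+FSTL1 replicate 2 or F4MKO+FSTL1 replicate 3.

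Of 10 tested contractile genes 9 had negative fold changes in F4MKO+FSTL1 against F4MKO and 1 a positive one, with a median of -0.37. Of these, 3 were called lower, namely Flna, filamin A (-1.04, adjusted p = 0.00238), Tpm1, a tropomyosin (-0.74, adjusted p = 0.00152), and Cnn2, a calponin (-0.70, adjusted p = 0.0136). Tpm2, another tropomyosin, was called higher (0.83, adjusted p = 0.0427, all by edgeR). Myl9, the regulatory light chain that Acta2 filaments work with, had means of 2.82, 2.95 and 2.89 CPM in Flox, F4MKO and F4MKO+FSTL1. Without F4MKO replicate 1, 2 contractile genes were called in place of 4. Serum response factor, Srf, had means of 16.3 ± 0.6, 16.2 ± 2.63 and 16.6 ± 2.16 CPM (SD, n = 3), and was not called. Of the 6 tested genes of the list that holds Srf with its regulators and partners, 1 was called lower, Tead1, a factor that works with YAP (-0.83, adjusted p = 0.00202, edgeR). Leaving out single libraries gave 1 to 3 calls on that list, with 3 without F4MKO replicate 3.

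The ligands of the PDGF receptors were lower in the same comparison as the receptors. Of the 4 ligand genes, 3 were called lower in F4MKO+FSTL1 than in F4MKO, with Pdgfd at -1.61 (adjusted p = 0.00171), Pdgfc at -1.15 (adjusted p = 0.00228) and Pdgfb at -1.08 (adjusted p = 0.0389, all by edgeR). Pdgfc and Pdgfa act through the alpha receptor and Pdgfd through the beta receptor, and Pdgfb acts through both. Pdgfd had means of 2.29 ± 0.309 CPM in Flox, 4.42 ± 1.05 CPM in F4MKO and 1.44 ± 0.211 CPM in F4MKO+FSTL1 (SD, n = 3). In F4MKO all libraries of all 4 ligands exceeded all Flox libraries, as in 11.7% of all genes, and 0 of the 4 were called. Leaving out single libraries gave 2 or 3 calls in F4MKO+FSTL1 against F4MKO.

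In F4MKO+FSTL1 against F4MKO, fibrogenic genes had the lowest median of the lists tied to stellate cells. Of 15, 11 were called lower in F4MKO+FSTL1 than in F4MKO and 0 higher, with a median of -1.22, and leaving out single libraries gave 9 to 11. Col1a1, the alpha 1 chain of collagen I, had means of 14.9 ± 4.02 CPM in Flox, 39.8 ± 15.9 CPM in F4MKO and 8.34 ± 2.77 CPM in F4MKO+FSTL1 (log2 fold change -2.25, adjusted p = 0.00152). Lox, which crosslinks collagen, differed by -2.16 (adjusted p = 0.00522), Col3a1 by -1.98 (adjusted p = 0.000751) and Timp1, an inhibitor of matrix-degrading proteases, by -1.97 (adjusted p = 0.00649, all by edgeR). All 15 had positive fold changes in F4MKO against Flox (median 0.77) and 0 were called, with 1 called without F4MKO+FSTL1 replicate 1 and 3 without F4MKO replicate 3.

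**Figure D5:**
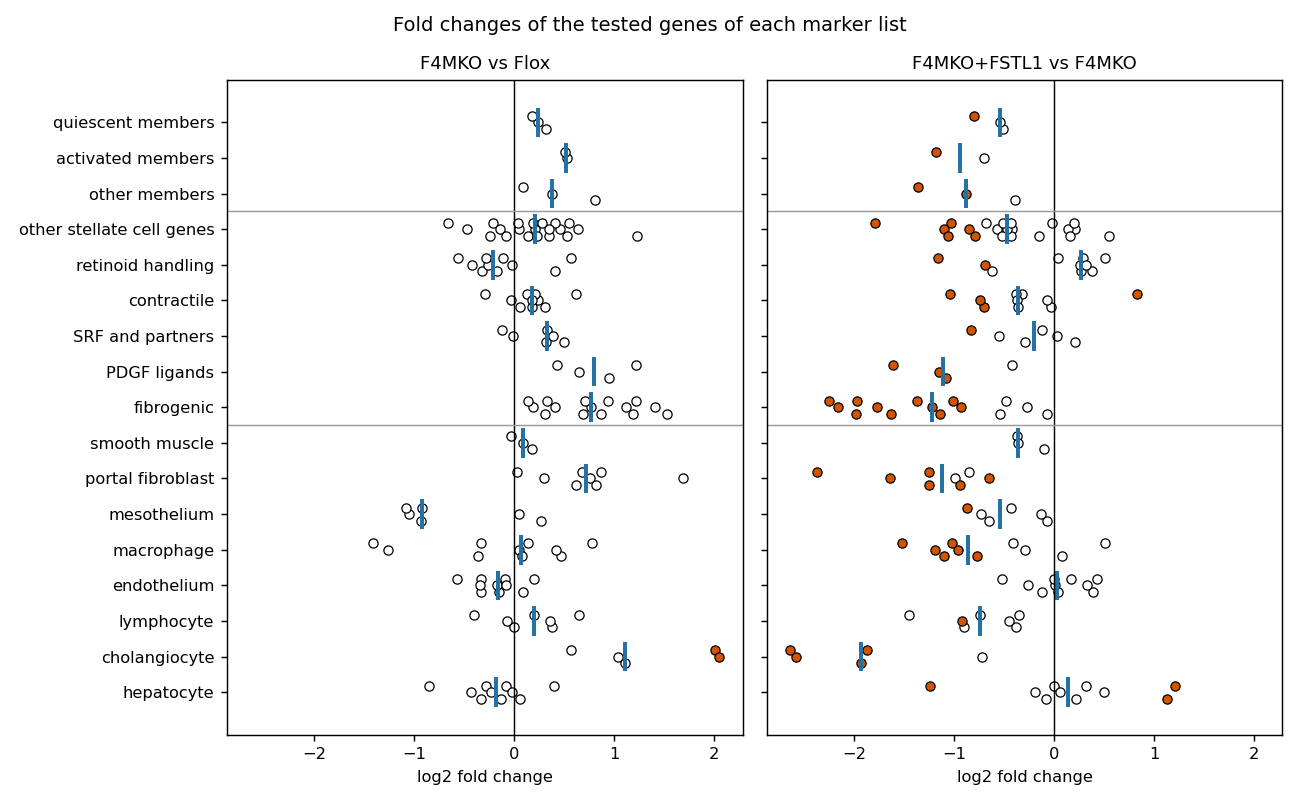
Log2 fold change of the tested genes of each list on the horizontal axis, for F4MKO against Flox (left) and F4MKO+FSTL1 against F4MKO (right); each point is a gene, orange points were called, and blue bars are list medians. In F4MKO+FSTL1 against F4MKO the other stellate genes have a median of -0.47. Medians are lower for cholangiocyte (-1.93), fibrogenic (-1.22), PDGF ligand (-1.12), portal fibroblast (-1.12), macrophage (-0.87), lymphocyte (-0.74) and mesothelial genes (-0.54). Those of the member classes are also lower, and that of endothelium (0.03) lies near 0.

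Markers of other cell types that share genes with stellate cells moved in the same comparison. Of 8 tested portal fibroblast genes 6 were called lower in F4MKO+FSTL1 than in F4MKO, among them Eln, elastin (-2.37, adjusted p = 0.00144), and Dpt, dermatopontin (-1.64, adjusted p = 0.00116), and their summed level ran from 30.4 to 33.9 CPM in Flox, 50.7 to 77.9 CPM in F4MKO and 21.6 to 26.6 CPM in F4MKO+FSTL1 libraries. Of 10 macrophage genes 6 were called lower and 0 higher, with Cd14 at -1.52 (adjusted p = 0.00346) and Lyz2 at -1.19 (adjusted p = 0.00288). Of the 10, 8 had negative and 2 positive fold changes. The summed macrophage level ran from 563 to 923, 714 to 783 and 340 to 528 CPM in the same order. Of 5 tested cholangiocyte genes 4 were called lower, with Spp1 at -2.64 (adjusted p = 0.0014) and Epcam at -2.58 (adjusted p = 0.00122, all by edgeR). Spp1 and Epcam were also called higher in F4MKO than in Flox (2.05, adjusted p = 0.0404, and 2.01, adjusted p = 0.0359), which made cholangiocyte genes the only list with a call there, and neither was called without F4MKO replicate 1 or without any 1 Flox library.

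Against the 11.2% of all genes called lower, 1 of 7 tested lymphocyte genes and 1 of 6 mesothelial genes were called lower. The lymphocyte gene was Ptprc, which encodes the pan-leukocyte marker CD45 (-0.92, adjusted p = 0.0033), with 4 called without F4MKO+FSTL1 replicate 3. The mesothelial gene was Gpm6a (-0.87, adjusted p = 0.0358), and the count was 0 when any 1 of 6 libraries was left out. Hepatocyte genes went both ways, with Serpina1c (1.21, adjusted p = 0.0014) and Cyp2e1 (1.13, adjusted p = 0.00206) called higher and Cyp3a11 called lower (-1.24, adjusted p = 0.0023, all by edgeR) among 10. Of 10 endothelial genes 0 were called by edgeR. An adjusted p under 0.05 was found in 1, which was higher in F4MKO+FSTL1 at a fold under 1.5. An unadjusted p under 0.05 was found in 2 of the 10 and in 5080 of the 14379 genes tested. The summed endothelial level ran from 332 to 410 CPM in Flox, 277 to 342 CPM in F4MKO and 300 to 363 CPM in F4MKO+FSTL1 libraries. Eng and Stab2, receptors of endothelium, had means of 97.2 and 57.6 CPM in Flox, 92.2 and 54.1 CPM in F4MKO and 92 and 55.7 CPM in F4MKO+FSTL1. Endothelial cells also carry Vim. Of 3 tested smooth muscle genes 0 were called and 1 had an unadjusted p under 0.05, and the 1 tested skeletal muscle gene was not called. The part of portal fibroblasts, leukocytes and smooth muscle in the levels of Vim, Pdgfra and Acta2 was not tested.

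For each tested class marker the 3 genes whose centred log2 CPM differed least from it over the 9 libraries were listed, as a description over libraries that share the group structure. For Lrat they were P3h3, a collagen prolyl hydroxylase, Dcn, the matrix proteoglycan decorin, and Nbea, with root mean square differences of 0.0891, 0.0909 and 0.0973 against a spread of 0.373 of Lrat itself. Dcn is a gene of the other stellate list, and so is Bmp5, which with Angptl2 and Klhdc8b was nearest to Reln (0.0618 for Angptl2, 0.0701 for Bmp5 and 0.0972 for Klhdc8b, spread 0.294). Hand2 was nearest to Rhoq (0.0659), Gm21811 (0.0832) and Myo9b (0.0857), with a spread of 0.258. Vim was nearest to Rnase6, a ribonuclease of myeloid cells, Epsti1 and Acot9 (0.0898, 0.0983 and 0.119, spread 0.536). Acta2 had the least close neighbours, P3h4, Bin2 and Spata6, at 0.185, 0.191 and 0.212 against a spread of 0.514.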

How the data were processed

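Total RNA of 9 liver samples was sequenced by the authors on a BGIseq500 instrument as paired-end reads. Per the submitters' processing notes, reads were trimmed with Trim Galore 0.6.7, mapped to mm10 with HISAT2 2.2.1 and counted with featureCounts 2.0.1. The authors deposited whole-number read counts per gene symbol, with no normalization in the values. The annotation, the use of strand and the treatment of reads shared between genes are not given in the sources used here.

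The main test was the edgeR 4.0.16 quasi-likelihood test under R 4.3.3 (filterByExpr with a minimum count of 10 and a minimum total of 15, TMM, quasi-likelihood fit of all 9 libraries with 1 mean per group, Benjamini-Hochberg adjustment over 14379 genes). TMM factors ran from 0.927 to 1.17, the common BCV (biological coefficient of variation) being 0.15. Log2 CPM used a prior count of 2. A count of 3 or fewer was taken as the floor, which covers counting error only. No pair of libraries within a group agreed within counting noise.

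The members, the lists and the tests were chosen with earlier results of these data known. All members are named, and from each list the called genes with the largest change, up to 4, or up to 3 with the highest level where none was called. Genes named outside this rule (Fstl1, Irf4, Pcsk7 and those pointed out as such, with Angptl6, Cxcl12, Lmod1, Smtn, Tmem56, Rbp4, Ttr, Myl9, Srf and Pdgfa) were chosen after their values were seen. A listed gene that the rule would name is not reported here. Of 151 listed genes 150 were found, 5 of them under an older symbol such as Gucy1a3 for Gucy1a1. Alternatives were DESeq2 1.42.0, DESeq2 size factors, upper-quartile factors or total counts in edgeR, no filter, only the 6 libraries compared, the replicate number as a block, adjusted p alone, a test against a fold of 1.5, leaving out each library and, added after seeing the data, the lists with each library left out.

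The fit was tested on simulated data for F4MKO+FSTL1 against F4MKO. Among 14203 genes it recovered 69.1% of 97 genes changed 2-fold and 95% of 100 changed 4-fold, and called 6 of 14006 unchanged genes. About as many genes were raised as lowered in the simulation. The data had far more calls, 461 higher and 1609 lower, so these shares need not hold for them.

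Gene positions and exon overlaps came from GENCODE vM21 on GRCm38 (mm10), and promoter windows from RefSeq on GRCm38.p6, where 7 of the 9 members were searched and 4 are shown.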

Additional observations from a re-analysis of the deposited data

How the results depend on the processing

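In F4MKO+FSTL1 against F4MKO, all 8 members kept a negative fold change in every alternative and Vim and Pdgfra kept their call. Lrat kept its call in all but the test against a fold of 1.5. The 4 called members became 7 with total counts and 2 with the test against a fold of 1.5, and 3 to 5 with 1 library left out. The 2070 genes called became 620 with the test against a fold of 1.5 and 1295 to 2216 with 1 library left out (1335 without F4MKO replicate 1 and 1295 without F4MKO+FSTL1 replicate 2). With total counts 8.61% of the called genes were higher, against 22.3% with TMM.

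In F4MKO against Flox, 39 genes became 338 with DESeq2, 59 with total counts, 478 without the filter, 11 with only the 6 libraries compared, 0 with the test against a fold of 1.5 (483 genes had an unadjusted p under 0.05 in it) and 0 to 100 with 1 library left out (0 without each Flox library or F4MKO replicate 1, 100 without F4MKO replicate 3, and 24, 23 and 19 without F4MKO+FSTL1 replicates 1, 2 and 3). Called members went from 0 to 1, Pdgfra, with DESeq2 and without the filter, and to 0 to 1 with 1 library left out. The share of called genes that were higher was 74.4% with TMM and 89.8% with total counts. The value of Des ran from -0.03 (without F4MKO replicate 1) to 0.20 with 1 library left out.

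In F4MKO+FSTL1 against Flox, 1 gene became 284 with DESeq2, 379 without the filter, 2 with DESeq2 size factors, 2 with total counts, 0 with only the 6 libraries compared, 0 with the test against a fold of 1.5 (1843 and 378 genes had an unadjusted p under 0.05) and 0 to 101 with 1 library left out (101 without F4MKO+FSTL1 replicate 3, 9 and 15 without Flox replicates 1 and 3, 5 without F4MKO replicate 2, and 0 without any other). Called members went from 0 to 1, Vim, with DESeq2 and without the filter, and to 0 to 1 with 1 library left out. The value of Acta2 ran from -0.63 to 0.12 (without F4MKO+FSTL1 replicate 2) with 1 library left out. The causes were not tested.

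Replicate numbers are shared by the groups, and the labels do not say whether same-numbered samples belong together. Correlations of their deviations ran from 0.042 to 0.169 in F4MKO against Flox, from 0.092 to 0.304 in F4MKO+FSTL1 against F4MKO and from -0.099 to 0.206 in F4MKO+FSTL1 against Flox, and libraries were nearest to their own number in 5, 6 and 2 of 6 cases. With the replicate block, 134, 2170 and 15 genes and 1, 4 and 0 members were called in these comparisons, and the 1 member was Pdgfra (0.78, adjusted p = 0.0475, edgeR). Changes of 2-fold were recovered incompletely in simulated libraries of this depth, and Acta2, with 45 to 189 reads, had the widest intervals of the members.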
